A study of Mus musculus with 4 samples.

Results

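The peaks described here are the 152 ATAC-seq peaks assigned to histone genes other than the H3.3 genes. They were taken from a table of 70436 peaks of the mm10 genome as every peak whose nearest gene carries a Hist1 to Hist4, H1f, H2a, H2b, H3c or H4c symbol, which gave 64 genes. ATAC-seq measures open chromatin by letting a transposase insert sequencing adapters into accessible DNA. The cells were melb-a, an immortal line of mouse melanoblasts, the precursors of pigment cells, labelled wild type in genotype. All cells were infected with lentivirus carrying a short hairpin RNA and selected with puromycin. The 2 control libraries carried hairpins against luciferase (control 1) or of scrambled sequence (control 2), and the 2 Hira libraries carried different hairpins against Hira (hairpin I and hairpin II). Each hairpin had 1 library, so hairpin, infection and library cannot be told apart. The comparison asked how knockdown of Hira altered accessibility, followed here at the histone genes other than those of H3.3.

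Most histone protein is made from replication-dependent genes, which lie in clusters, lack introns and are transcribed in S phase at nuclear bodies organised by NPAT. Their messages end in a stem-loop bound by SLBP in place of a poly(A) tail, and their products are placed on new DNA by chaperones such as CAF-1. The variant H3.3, in contrast, is encoded by intron-containing genes outside these clusters and is deposited by HIRA independently of replication. Other variants, such as H2A.Z (H2afz and H2afv), H2A.X (H2afx) and macroH2A (H2afy and H2afy2), are also encoded by single genes, and H2A.L genes and H1foo are known from the male and female germ line.

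The members fell into 62 peaks of the Hist1 cluster on chromosome 13, 10 of Hist2 on chromosome 3, 2 of Hist3 on chromosome 11 and 1 of Hist4 on chromosome 6. Another 25 peaks belonged to 9 single genes, and 52 to H2A.L genes, H2afy3 and the isolated Hist1h2al (the latter pair annotated as pseudogenes). A total of 35 peaks were annotated as promoter. A further 15 carried another annotation, such as exon or transcript end, but still reached over the start of their short gene. These 50 are called start peaks below, and the other 102 lay away from starts. Among the promoter-annotated ones, the H1foo, Hist1h3f, Hist1h4h and both Hist2h3c1 peaks lie beside the start without covering it. The Hist1h4h promoter peak lies over a tRNA gene. All 152 passed the filter on low counts.

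Tags in peaks ranged from 8910983 (hairpin II) to 20716859.5 (control 1), and the median peak held 54 to 126 tags. The spread between control 1 and control 2 was below sampling noise, with a chi-square of 0.933 per peak against 6.24 for the Hira libraries, and they were summed and counted as 1 sample. P-values therefore compare 1 control sample with 2 Hira samples and measure only the spread between these libraries. An exact permutation test of a single peak could not go below 0.333. At the Hira promoter, accessibility was 72.4, 72.0, 62.6 and 73.1 CPM (counts scaled to library size, here with TMM factors) in control 1, control 2, hairpin I and hairpin II, which does not check a knockdown that acts on RNA. Of the 7 melanoblast markers, 6 had a peak within 1 kb of their start, at 11.6 to 65.4 CPM in the control. Among markers of other cells, fibroblast genes had 2 of 4 such peaks (Pdgfra at 50.8 CPM), blood 1 of 3, endothelium 1 of 3 and keratinocytes 0 of 3. At the peaks nearest the endothelial genes (0.813 to 2.6 CPM in the control) log2 fold changes were 1.48 to 2.68, at the 7 melanoblast genes -1.15 (Dct) to 0.38, and the part of such cells in the results was not tested.

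The promoters on which the comparisons below turn are shown first, as the RefSeq sequence of GRCm38.p6. Capitals mark the letters searched for on both strands, namely the TATAAA of a TATA box, the CCAAT box, which reads ATTGG when it lies on the opposite strand, and the octamer ATTTGCAT. No motif overlaps another in these stretches. The first is the stretch between the divergent starts of H2bc13 (left, reverse strand) and H2ac13 (right, forward strand), at chr13:21716184-21716411, under the Hist1h2ai peak that had the largest log2 fold change among cluster promoters. The next lies between H2ac8 (left, reverse strand) and H2bc8 (right, forward strand), at chr13:23571221-23571399, under the Hist1h2bg peak, and is shown because it holds all of the searched motifs. The others are the 150 bases before a start. These are H4c11 (Hist1h4j, chr13:21734884-21735033, forward), H1f5 (Hist1h1b, chr13:21780626-21780775, reverse) and H4f16 (Hist4h4, chr6:136804432-136804581, reverse), which had high log2 fold changes. They are set against H3c6 (Hist1h3e, chr13:23562386-23562535, reverse) and H2az1 (H2afz, chr3:137864337-137864486, forward), which did not.
H2bc13-H2ac13: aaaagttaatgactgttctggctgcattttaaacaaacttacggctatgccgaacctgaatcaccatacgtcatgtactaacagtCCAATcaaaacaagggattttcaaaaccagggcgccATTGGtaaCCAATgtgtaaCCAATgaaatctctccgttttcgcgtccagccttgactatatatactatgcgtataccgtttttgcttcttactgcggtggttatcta
H2ac8-H2bc8: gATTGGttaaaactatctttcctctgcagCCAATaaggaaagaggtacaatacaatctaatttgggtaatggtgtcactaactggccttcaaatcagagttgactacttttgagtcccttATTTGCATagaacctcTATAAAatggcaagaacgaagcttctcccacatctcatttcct
H4c11: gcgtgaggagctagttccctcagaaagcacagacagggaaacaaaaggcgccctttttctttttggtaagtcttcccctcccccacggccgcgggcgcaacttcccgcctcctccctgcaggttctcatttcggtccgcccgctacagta
H1f5: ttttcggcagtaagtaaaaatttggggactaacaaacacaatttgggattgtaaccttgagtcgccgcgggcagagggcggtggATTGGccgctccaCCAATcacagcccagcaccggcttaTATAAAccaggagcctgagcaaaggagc
H4f16: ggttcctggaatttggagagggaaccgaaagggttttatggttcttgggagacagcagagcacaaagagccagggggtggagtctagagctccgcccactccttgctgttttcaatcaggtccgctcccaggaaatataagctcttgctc
H3c6: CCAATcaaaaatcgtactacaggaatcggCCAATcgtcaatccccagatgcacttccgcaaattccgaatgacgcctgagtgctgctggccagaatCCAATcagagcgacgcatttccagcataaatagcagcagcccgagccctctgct
H2az1: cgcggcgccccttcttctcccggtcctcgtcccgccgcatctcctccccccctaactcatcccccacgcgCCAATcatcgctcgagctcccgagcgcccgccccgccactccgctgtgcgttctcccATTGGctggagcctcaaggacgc

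Cluster promoters shared letters that the choice of members did not use. Windows ran from 250 bases before to 50 bases after the start, for 50 cluster starts under a member peak. TATAAA stood on either strand in 31 of the 50 (62.0%), against 13.6% of 32851 RefSeq windows. The latter were not limited to starts under a peak. CCAAT, the element bound by NF-Y, stood in 42 of 50 (84.0%) against 37.4%. The octamer, known as the Oct-1 element of H2B promoters, stood in 11 of 50 (22.0%) against 1.74%. All 11 windows were of H2A or H2B genes (6 of 15 and 5 of 12), whose divergent starts can share 1 copy, as in the H2ac8-H2bc8 stretch. CCAAT stood in every H1, H2A, H2B and H3 window of these 50 and in only 3 of 11 H4 windows. Neither printed H4 stretch holds it. None of the 5 windows of single gene starts under a member peak held TATAAA. Promoters with high and low log2 fold changes both held CCAAT, as the H1f5, H3c6 and H2az1 stretches show.

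Of 94 RefSeq histone genes with a promoter entry, 54 had a peak over a start. In Hist1 these were 43 of 51 genes. Those without included H1f6 (Hist1h1t) and the H2ac1 and H2bc1 pair, which encode testis histones. Hist1h1t still had an exon peak of 10.9 CPM in the control, at 467 bases from its start. The others without were H2ac23, H2ac24, H2bc23, H4bc24 and H4c17, with starts from chr13:21810199 to 21833743. Near-identical Hist1 copies may share reads, and the part of this in the missing peaks was not tested. In Hist2, 4 of 8 genes had a peak over a start, and none of 18 H2A.L genes had one. Per length, the level in the summed control had a median of 32.1 CPM per kb over the 43 cluster start peaks, with a range of 10.2 to 54.6, beside a median of 29.7 CPM per kb over all 11225 start peaks. Hist1h3g (an H3 gene) at 54.6 and Hist1h1c (linker histone H1.2) at 53.4 CPM per kb had the highest levels. Both Hist2h3c1 peaks, which do not cover the start itself, had the lowest at 10.9 and 10.2. Among single genes, H2afv at 78.5 CPM per kb and H2afx at 55.6 lay above that range, and H2afz at 54.4 lay within it.

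Accessibility at cluster starts was slightly higher with both Hira hairpins, in the median of each of 5 protein families and by far less than 2-fold. Summed over the 43 cluster start peaks, accessibility was 1661 and 1642 CPM in controls 1 and 2, 1881 with hairpin I and 1982 with hairpin II. Both Hira sums lay above both control sums. Fitted log2 fold changes ranged from -0.07 to 0.69 with a median of 0.14, beside -0.01 over all 11225 start peaks of the series. Both Hira libraries lay above both controls at 30 of the 43 peaks (69.8%) and below both at 0, and the groups overlapped at 13. Over all start peaks the shares above and below were 27.8% and 29.3%. The hairpins share the control, so their values are given side by side. The median log2 ratio was 0.14 with hairpin I and 0.22 with hairpin II, beside -0.04 and 0.01 over all start peaks.

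These directions depend on the scaling of whole libraries. The scaling behind the authors' fold changes moves the median of all peaks to -0.40 with hairpin I and -0.13 with hairpin II, and the cluster start medians to -0.26 and 0.09. Relative to the median of all start peaks, the cluster start peaks were higher by 0.18 with hairpin I and 0.20 with hairpin II. A scaling by 1 factor per library cancels in this difference. TMM, total tags, the authors' scaling and DESeq2 size factors therefore had to agree. The choices that could differ gave 0.14 and 0.20 (cyclic loess), 0.23 and 0.24 (control 2 alone) and 0.15 and 0.21 (control 1 alone). Counted relative to that median under TMM, 35 of 43 peaks were higher with hairpin I and 41 of 43 with hairpin II. Cyclic loess gave the same counts, and the authors' scaling could not change them. Below, "higher" and "lower" are on the TMM scale.

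No histone peak passed the test. With the controls as 1 sample, edgeR's quasi-likelihood test called 0 of 152 members and 0.0% of 70432 peaks at an adjusted p under 0.05, while 30 members and 15569 peaks had an unadjusted p under 0.05. DESeq2 called 5 members, beside 4.35% of the 55411 peaks to which it gave an adjusted p. The likelihood ratio test called 15 (12.2% of all peaks) and the newer quasi-likelihood estimate 18 (14.1%). With the controls kept as 2 libraries, which lends the fit their near absent spread, 42 members (27.6%) and 25.3% of all peaks were called. The share of members called lay near that of all peaks in each of these tests, where the DESeq2 share of 3.29% counts all 152 members. In that fit 11 cluster start peaks were called higher and 0 lower, beside 4.93% and 2.0% of all start peaks.

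**Figure D1:**
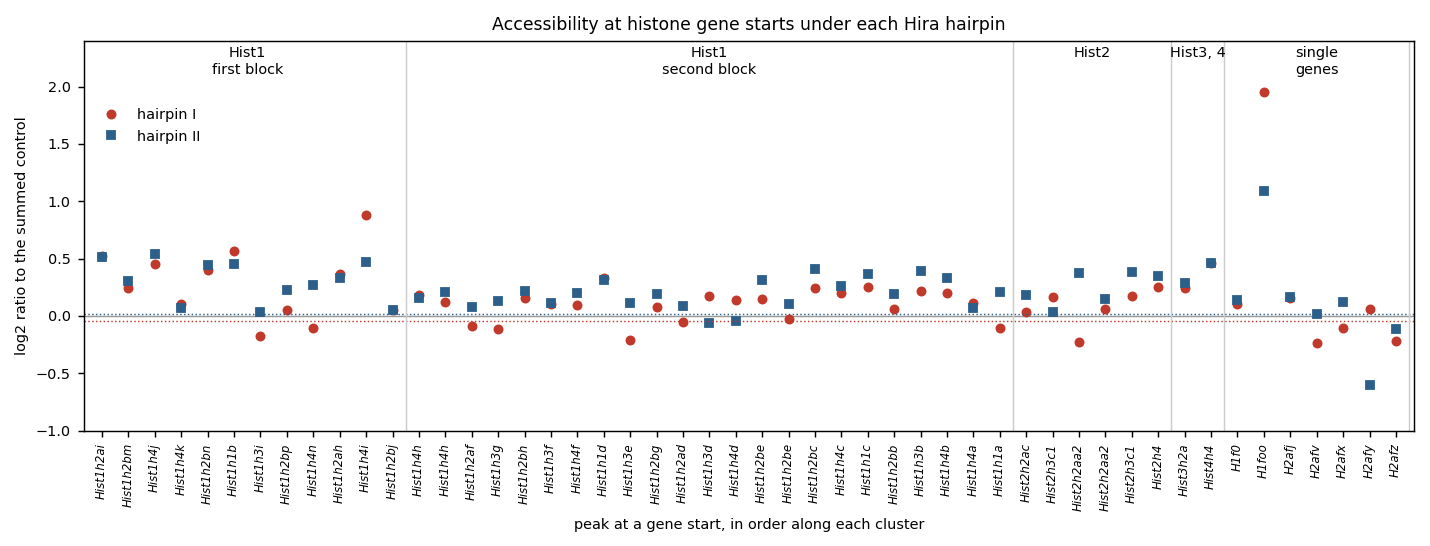
Log2 ratio of each Hira library to the summed control (vertical axis, TMM scale) at the 50 start peaks, in order along each cluster and by name for single genes (horizontal axis). Red circles are hairpin I, blue squares hairpin II, and dotted lines the median of all start peaks for each hairpin (-0.04 and 0.01). Most cluster peaks sit above those lines, by most in the Hist1 first block, and H1foo stands apart at 1.95 and 1.09.

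The Hist1 cluster was covered in stretches separated by 1.46 Mb without a member peak, from 21.71 to 22.05 Mb (the first block) and from 23.51 to 23.76 Mb (the second block). This division was made after the values were seen. The first block had the higher log2 fold changes at start peaks. Its 12 start peaks summed to 382.4 and 377.3 CPM in controls 1 and 2, 478.4 with hairpin I and 484.0 with hairpin II, and their median log2 fold change was 0.31. The second block's 23 start peaks summed to 986.2, 984.1, 1061 and 1138 CPM in the same order, with a median of 0.13. In both blocks the Hira sums lay above the control sums, by a log2 ratio of 0.33 and 0.35 (hairpins I and II) in the first and 0.11 and 0.21 in the second. Promoter peaks of other genes within 1 Mb had medians of 0.00 (5 peaks) and -0.09 (3 peaks) beside the blocks. Non-promoter peaks of other genes there had medians of 0.13 (48 peaks) and 0.10 (58 peaks). With hairpins I and II these were 0.22 and -0.02 beside the first block, and 0.17 and 0.04 beside the second. With 1 control sample the difference between blocks was not tested.

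In the first block the Hist1h2ai peak (chr13:21715463-21717790) covers the starts of H2ac13, H2bc13 and H3c10, which encode H2A, H2B and H3, and its promoter sequence is the H2bc13-H2ac13 stretch above. It held 47.6, 45.3, 66.9 and 66.8 CPM in control 1, control 2, hairpin I and hairpin II. Both Hira libraries lay above both controls, with a log2 fold change of 0.52 (SE 0.16, 1 control sample against 2; edgeR quasi-likelihood adjusted p = 0.105, and 0.0126 with the controls kept apart).
The peak over Hist1h1b (H1.5, a linker histone that binds between nucleosomes) held 41.9, 44.7, 63.7 and 58.9 CPM in the same order. The groups did not overlap, and the log2 fold change was 0.51 (SE 0.17, edgeR adjusted p = 0.119). Hist1h4j (an H4 gene) held 34.9, 38.5, 50.0 and 52.9 CPM, again without overlap, a log2 fold change of 0.50 (SE 0.17, edgeR adjusted p = 0.137). Hist1h4i, a shallower H4 peak, had the largest log2 fold change of all cluster start peaks at 0.69 (SE 0.31), from 12.01 and 12.64 CPM in the controls to 22.65 and 17.07 with the hairpins.

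Not every start in the first block was higher. Hist1h3i (an H3 gene) held 12.8, 13.6, 11.7 and 13.4 CPM in control 1, control 2, hairpin I and hairpin II, and the groups overlapped. Its log2 fold change of -0.07 (SE 0.33) was the lowest of all cluster start peaks. Hist1h4n held 5.52, 4.38, 4.67 and 6.09 CPM, with overlap as well. Hist1h2bj and Hist1h4k were higher by only 0.05 and 0.09. Of the peaks over divergent H2A and H2B starts in this block, Hist1h2ai had a log2 fold change of 0.52, as given above. Hist1h2bn was at 0.42, Hist1h2ah at 0.35, Hist1h2bp at 0.14 and Hist1h2bj at 0.05.

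**Figure D2:**
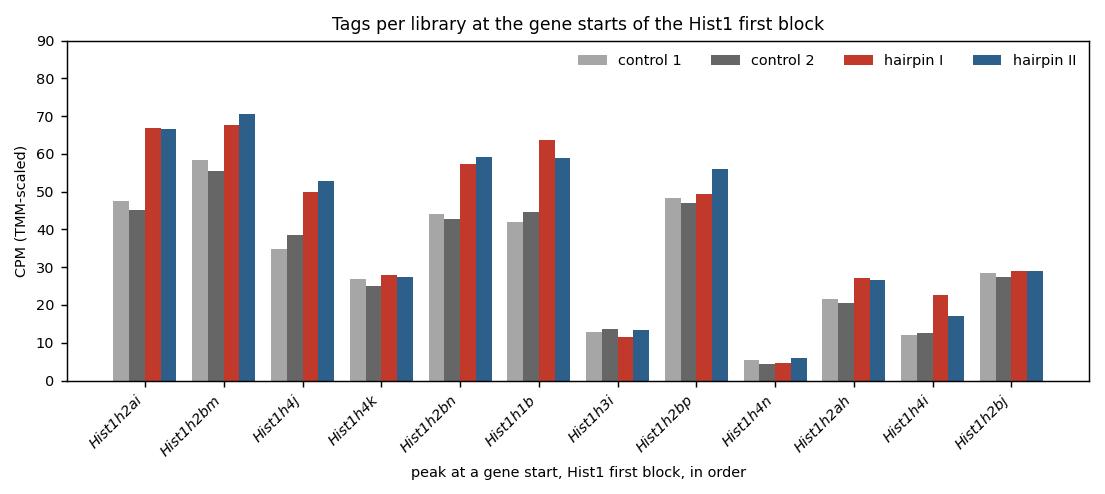
TMM-scaled CPM (vertical axis, from 0) of each library at the 12 start peaks of the Hist1 first block, in order along the chromosome (horizontal axis). Bars are single libraries, so there is no error bar. Both Hira bars stand above both control bars at 10 of the 12 peaks, and overlap with them at Hist1h3i and Hist1h4n.

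At the start peaks of the second block the differences were smaller and more even, from -0.04 to 0.33. Hist1h4a, the peak with the highest CPM of all members, held 108.6, 105.4, 115.7 and 112.8 CPM in control 1, control 2, hairpin I and hairpin II. Its groups did not overlap, but the log2 fold change of 0.09 was below its SE of 0.14. Hist1h2bc held 62.2, 66.1, 75.7 and 85.1 CPM, without overlap. Its log2 fold change of 0.33 (SE 0.16, edgeR adjusted p = 0.274) was the largest among the block's start peaks.
The linker histone genes Hist1h1c (H1.2) and Hist1h1d (H1.3) followed at 0.31 and 0.32. Hist1h2bb, over the starts of H2bc3 and H3c3, held 70.2, 67.6, 71.9 and 79.0 CPM, without overlap and with a log2 fold change of 0.13. The groups overlapped at the deep Hist1h2be promoter peak, which also covers the start of the linker histone gene H1f4, with 81.4, 78.2, 78.4 and 86.0 CPM. They overlapped too at Hist1h3e, whose H3c6 promoter is printed above, with 43.8, 41.9, 37.1 and 46.6 CPM and a log2 fold change of -0.04 (SE 0.20). Hist1h2af (H2A) was next lowest at 0.00.

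Hist2 holds inverted copies of its H2A and H3 genes, and reads from such copies cannot be told apart where their sequences match, so the split between copies is uncertain. Its 6 start peaks summed to 161.0 and 156.6 CPM in controls 1 and 2, 174.1 with hairpin I and 190.9 with hairpin II. The Hira sums were higher, and the single log2 fold changes ranged from 0.10 to 0.30. Hist2h2ac (H2A) held 65.0, 60.1, 64.4 and 71.4 CPM, where the groups overlapped. Hist2h4 (H4) held 68.2, 68.3, 81.2 and 86.7 CPM, where they did not, with a log2 fold change of 0.30 (SE 0.15, edgeR adjusted p = 0.304). Log2 fold changes were 0.10 and 0.11 at the 2 Hist2h2aa2 peaks and 0.10 and 0.28 at the 2 Hist2h3c1 peaks, which held 3.22 to 14.5 CPM over all libraries.

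The start peaks of the small clusters were also higher. Hist4h4, a lone H4 gene, held 83.1, 80.4, 112.8 and 112.9 CPM in control 1, control 2, hairpin I and hairpin II. Both Hira libraries lay above both controls, at a log2 fold change of 0.46 (SE 0.14, edgeR adjusted p = 0.112, and 0.0126 with the controls kept apart). H2afj (the H2A variant H2A.J), its neighbour on the chromosome, held 62.7, 65.9, 71.5 and 71.9 CPM, a smaller log2 fold change of 0.16 (SE 0.15). Hist3h2a held 48.0, 43.4, 54.6 and 56.2 CPM, without overlap, at 0.27 (SE 0.16).

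Split by protein, the median log2 fold change of cluster start peaks was 0.32 for H1 (4 peaks), 0.18 for H4 (13), 0.16 for H2B (10), 0.11 for H2A (8) and 0.08 for H3 (8). Both Hira libraries lay above both controls at 3 of 4 H1 peaks, 11 of 13 H4, 9 of 10 H2B, 4 of 8 H2A and 3 of 8 H3 peaks, and below both at none. Under the authors' scaling the hairpin I medians of all 5 families turn negative, from -0.11 (H1) to -0.35 (H2A), and with hairpin II that of H3 does (-0.02). H2A and H2B often share a peak, so these families are not separate measurements.

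The single genes did not move together. At H2afz (H2A.Z.1), the H2az1 promoter above, accessibility was 39.9, 40.8, 34.7 and 37.2 CPM in control 1, control 2, hairpin I and hairpin II. Both Hira libraries lay below both controls, the sole such case among the 50 start peaks, with a log2 fold change of -0.17 (SE 0.18, edgeR adjusted p = 0.711). H2afv (H2A.Z.2) held 78.1, 80.0, 67.0 and 79.7 CPM, at -0.11, and H2afx (H2A.X, phosphorylated at DNA breaks) 73.0, 71.8, 67.4 and 78.7 CPM, at 0.01. In both the groups overlapped. H1f0 (the replacement linker histone H1.0) held 26.7, 27.1, 29.0 and 29.6 CPM, at 0.12 (SE 0.21).
The macroH2A1 gene H2afy had a small promoter peak of 4.92, 4.26, 4.84 and 3.02 CPM, at -0.22 (SE 0.51), with overlapping groups. H2afy2 (macroH2A2) and H1fx (H1.10) had no promoter peak. Their nearest peaks lay 29.5 and 11.3 kb away. The former held 4.08, 3.60, 1.22 and 2.10 CPM (log2 fold change -1.28, SE 0.51), with both Hira libraries lower, and the latter 2.82, 2.97, 6.91 and 4.38 CPM (0.98, SE 0.52), with both higher. A second H2afy2 peak, 47.2 kb away, held 0.91, 1.32, 9.89 and 4.15 CPM and had the highest log2 fold change of all members at 2.70 (SE 0.68, edgeR adjusted p = 0.0761), which was 1.91 without hairpin I.

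H1foo, the oocyte linker histone, had the largest log2 fold change of any promoter-annotated member. Its peak lies at -906 bases from the start and does not cover it. It held 2.51, 2.88, 10.6 and 5.80 CPM in control 1, control 2, hairpin I and hairpin II. Both Hira libraries were above both controls, by a log2 ratio of 1.95 and 1.09 and a fitted log2 fold change of 1.63 (SE 0.54, edgeR adjusted p = 0.124). It was the one promoter member of 35 beyond 2-fold under both hairpins, where 1.21% of all promoter peaks were higher and 0.501% lower by that measure. Of the other 6 peaks assigned to H1foo, 4 lie within Plxnd1, and the 1 of them beyond 2-fold (chr6:115962698-115963074) held 2.03, 2.32, 9.78 and 4.84 CPM.

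Away from starts, histone gene peaks were shallower and moved in both directions. The 102 such peaks had a median of 4.44 CPM in the control, against 40.9 for the 50 start peaks, and log2 fold changes from -2.55 to 2.70. Both Hira libraries lay above both controls at 42 (41.2%) and below both at 34 (33.3%), beside 35.8% and 35.2% of all 59211 peaks away from starts. Beyond 2-fold under both hairpins were 9 higher and 7 lower, beside 9.69% and 6.89%. With the controls kept apart 17 were called higher and 13 lower, where 16.2% and 12.6% of all such peaks were. These shares lie near the background of peaks away from starts.

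**Figure D3:**
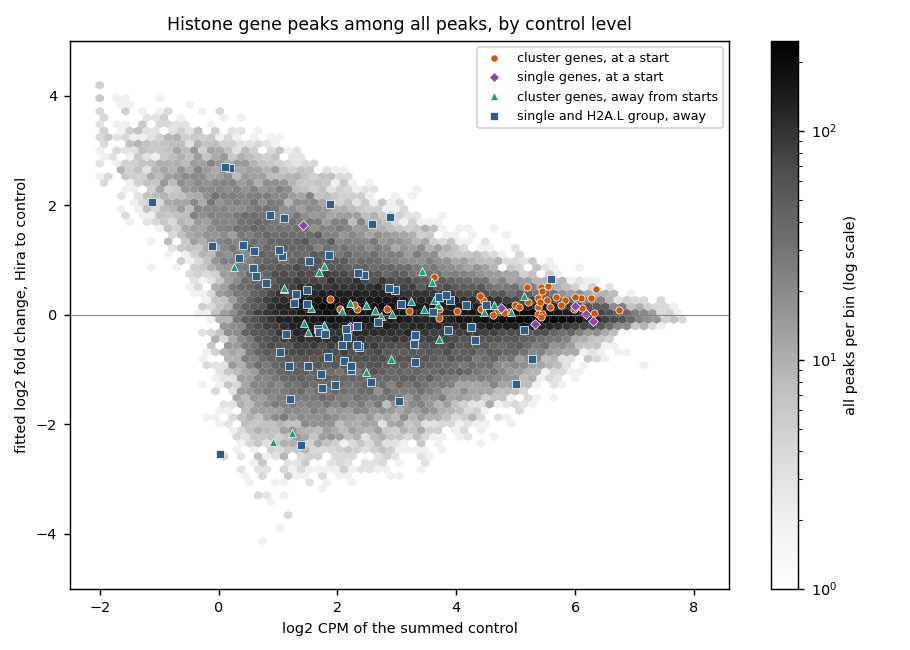
Fitted log2 fold change (vertical axis) against log2 CPM of the summed control (horizontal axis), for all tested peaks as grey bins and for the members as coloured symbols. Cluster start peaks (orange) sit mostly at high control levels and within -0.07 to 0.69, while peaks away from starts (green and blue) spread from -2.55 to 2.70 at low levels.

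Within the clusters, the lowest log2 fold changes lay away from histone gene starts. The peak 6.70 kb from Hist1h4k (chr13:21743714-21743998) held 2.56, 2.10, 0.37 and 0.68 CPM in control 1, control 2, hairpin I and hairpin II, a log2 fold change of -2.17 (SE 0.55, edgeR adjusted p = 0.076). The peak 8.80 kb from Hist1h2be, in an intron of the lncRNA Gm33387, held 1.67, 2.16, 0.47 and 0.23 CPM, at -2.32 (SE 0.58, edgeR adjusted p = 0.0751). At both, the Hira libraries lay below the controls. The hairpin II value of the latter rests on 2.0 tags. On tags rounded to whole numbers, its ratio to the control was 0.12 (95% exact interval 0.0142 to 0.45, counting error only). With cyclic loess scaling the values were -1.23 at the former and -1.02 at the latter, and without hairpin I the latter was at -3.03. These were the only cluster peaks beyond 2-fold under both hairpins, and neither lies over a gene start. Others, at 5.27 kb from Hist1h4j and 2.46 kb from Hist3h2ba, had log2 fold changes of -0.80 and -1.05. The highest, 18.8 kb from Hist1h2br, was 0.89.

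The Hist1 region also holds tRNA genes, which are transcribed by RNA polymerase III. A tRNA gene lay under 12 Hist1 peaks, 11 of them away from histone starts. This set was chosen after the values were seen. Summed, the 12 held 150.2, 141.7, 174.6 and 160.3 CPM in control 1, control 2, hairpin I and hairpin II, so both Hira sums were above both controls. Singly, both Hira libraries lay above both controls at only 5 of the 11 (45.5%) and below both at 0, and the groups overlapped at 6. Over all peaks away from starts the shares above and below were 35.8% and 35.2%. The log2 fold changes of the 12 were narrow, from -0.03 to 0.46 with a median of 0.18. The peaks away from histone starts without a tRNA gene (16 in Hist1) ran from -2.32 to 0.89. These 16 were also shallower, with a median of 3.37 CPM in the control against 7.95 for the 12, and the part of depth in the spread was not tested. The deepest of the 12, 13.4 kb from Hist1h4h and over several tRNA genes, held 35.3, 34.7, 47.7 and 41.3 CPM, at 0.35 (SE 0.19).

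The H2A.L, H2afy3 and Hist1h2al peaks are assigned to these genes only by distance, at a median of 111 kb from a start. Of the 52, both Hira libraries lay above both controls at 21 and below both at 22. H2afy3 accounted for 23, several of them within introns of the lncRNA Pvt1. The 4 of these beyond 2-fold under both hairpins were all higher and lay 67.8 to 281.7 kb away. The deepest of the 4 held 7.24, 7.67, 29.9 and 21.3 CPM in control 1, control 2, hairpin I and hairpin II, a log2 fold change of 1.79 (SE 0.33, edgeR adjusted p = 0.0704). The Hira libraries lay far above the controls there. In contrast, a Pvt1 intron peak assigned to the same gene held 32.2, 32.4, 8.40 and 18.9 CPM, at -1.26 (SE 0.41).

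At H2al2a, whose product is known from spermatids, 4 of 5 peaks were lower and 1 higher. The lower peak 4.15 kb from the start held 7.95, 8.58, 2.57 and 2.96 CPM, at -1.58 (SE 0.46), and the higher one 19.1 kb away held 1.67, 2.00, 6.67 and 6.14 CPM, at 1.82 (SE 0.51). Neither pair of groups overlapped. Another, 17.2 kb away, had a log2 fold change of -1.55. At H2al1a, 140.6 kb from the start, a peak held 6.06, 5.70, 2.4 and 2.62 CPM (-1.23), and the next one at 122.4 kb held 0.55, 0.34, 2.34 and 1.48 CPM (2.06), so neighbouring peaks differed in direction. The 14 peaks nearest H2al1j ranged from -1.02 to 1.28, and the peak nearest H2al3 held only 1.5 and 2.0 tags with hairpins I and II, against 37.5 in the summed control. Without rounding, these were 0.10 and 0.23 CPM against 1.02 in the control. On tags rounded to whole numbers, which raises the 1.5, the ratios there were 0.132 (95% exact interval 0.0154 to 0.51) and 0.221 (0.0258 to 0.855). At H2al1n the nearer peak held 2.5 tags with hairpin II against 96.5 in the control, or 0.28 against 2.61 CPM. On tags rounded to whole numbers, which lowers the 2.5, the ratio was 0.0875 (0.0104 to 0.325). Cyclic loess scaling moved several of these shallow peaks, from -1.55 to -0.83 at H2al2a, from 2.06 to 2.75 at H2al1a, from -2.55 to -0.65 at H2al3 and from -2.38 to -1.31 at H2al1n, the last of which was -3.48 without hairpin I.

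The 35 promoter peaks had a median log2 fold change of 0.11 and a range of -0.22 to 1.63, and the 117 other peaks a median of 0.16 and a range of -2.55 to 2.70. Over the whole series the medians were -0.02 for promoter and 0.01 for other peaks. The SD over peaks was 0.31 for promoter and 0.93 for other members, beside 0.38 and 0.97 in the whole series. With the controls kept apart, 7 promoter members were called higher and 0 lower, where 4.72% and 2.27% of all promoter peaks were. The authors' deposited table calls 9 members up and 17 down, beside 8.48% and 11.8% of all peaks, and of these calls 1 is at a promoter, that of H1foo.

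**Figure D4:**
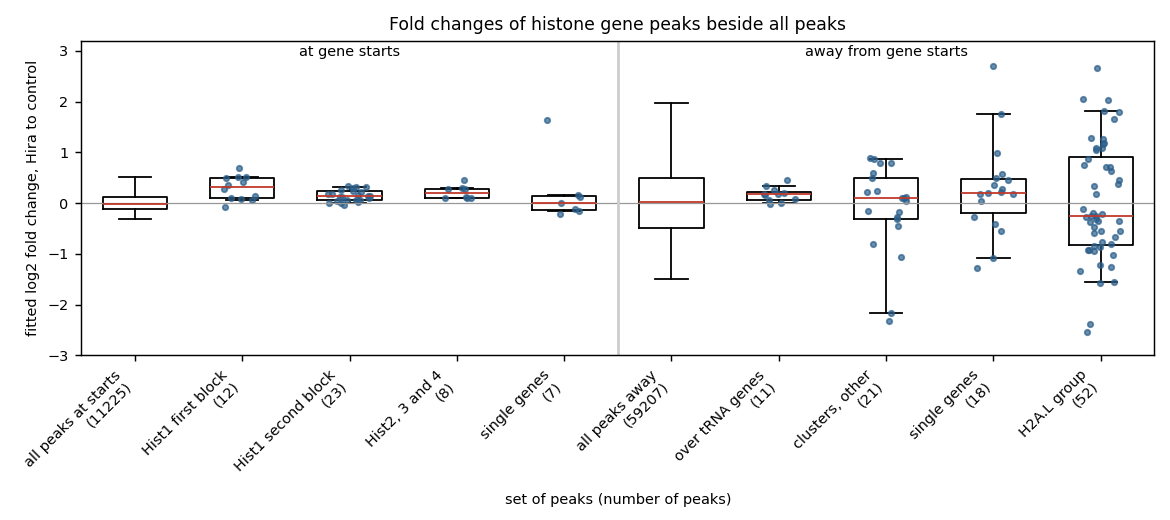
Fitted log2 fold change (vertical axis) of histone gene peaks by set (horizontal axis, number of peaks in brackets), with all start peaks and all peaks away from starts for reference. Boxes span the quartiles with the median in red, whiskers the 5th to 95th percentile, and points are single peaks. The Hist1 first block has the highest median (0.31) of the sets drawn at starts, and the sets away from starts spread widely except over tRNA genes (-0.03 to 0.46). The tRNA set was deeper, with a median of 8.38 CPM in the control against 4.81 for all peaks away from starts.

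Genes that act on histone genes or their products were followed at the peak nearest their start. Of 17 genes of the histone locus body and histone mRNA processing, 16 had a peak, with a median log2 fold change of -0.07. None was called in any direction, with the controls as 1 sample or kept apart. Npat, which organises the locus body, held 63.0 CPM in the control, 55.2 with hairpin I and 61.6 with hairpin II, and Slbp 83.5, 77.5 and 85.2 CPM. Mblac1, a nuclease of histone pre-mRNA, had log2 ratios of 0.55 and 0.18 with hairpins I and II (fitted log2 fold change 0.39, SE 0.32). It was the 1 gene of this list above 0 with both hairpins, and 6 were below 0 with both. The 4 cyclin E and E2F genes gave 0 calls, with a median of -0.01. E2f1, a transcription factor of S-phase entry, held 13.7, 22.4 and 16.7 CPM (0.53, SE 0.31), and Ccne2 (cyclin E2) 78.8, 84.7 and 85.6 CPM (0.11, SE 0.15). The other genes of this list were lower with both hairpins. Ccne1 (cyclin E1) held 43.7, 33.1 and 39.3 CPM (-0.27, SE 0.19), and Cdk2 46.8, 40.6 and 44.5 CPM (-0.14, SE 0.17). The difference between these lists and the cluster starts was not tested. Of 10 chaperone genes of replication-dependent histones, only Rbbp4 passed 1.5-fold under both hairpins, at an intron peak 10.5 kb from its start with 2.44, 10.6 and 7.0 CPM (log2 fold change 1.86), and it was the 1 gene called higher with the controls kept apart.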

How the data were processed

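ATAC-seq libraries were made with a commercial kit, per the labels' protocols. Tools named without roles in the submitters' processing notes are MACS2 2.2.9.1, cutadapt 2.3, edgeR 3.38.4, Bowtie2 and Picard, with the mm10 build. How duplicates, reads mapping to several places and the transposase offset were handled was not given in the sources used here. The deposited table gives tags per peak and library as estimated counts (every value a multiple of 0.5), rounded here to whole numbers. Further deposited columns hold a mean log2 CPM, a log2 fold change, a score (the likelihood ratio) and p-values before and after adjustment. The deposited calls are those with an adjusted p under 0.01 and an absolute log2 of at least 1. The scaling behind the deposited fold changes was recovered by least squares over 46005 peaks (residual SD 0.014 log2).

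Each peak was tested with edgeR 4.0.16 (legacy quasi-likelihood, two-sided, R 4.3.3), with TMM factors, filterByExpr, controls summed to 1 sample and Benjamini-Hochberg adjustment over 70432 peaks. The fit leaves 1 residual degree of freedom. Log2 ratios per hairpin used a prior of 2 tags. Alternatives were DESeq2 1.42.0, the likelihood ratio test, the newer quasi-likelihood estimate, controls kept apart (also with a replicate block), other scalings, filters and libraries left out. A start peak was annotated as promoter or reached its gene start by the deposited distance. Gene identity and sequences came from RefSeq (GRCm38.p6), matched by Entrez ID for all 152 peaks.

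Members, gene lists and tests were chosen with earlier results of these data known. Genes were named as the 4 promoter peaks of highest control CPM per cluster, the peak nearest the start of each single gene, peaks beyond 2-fold under both hairpins (up to 12 per direction) and the 3 highest and 3 lowest promoter changes. List genes were named when called or beyond 1.5-fold under both hairpins. Other peaks named, Npat, Slbp, Mblac1, E2f1 and Ccne2 among them, and the start-peak class, the Hist1 blocks and the tRNA set, were chosen after their values were seen. Figures were drawn with matplotlib 3.10.9.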

Additional observations from a re-analysis of the deposited data

How the results depend on the processing

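Peaks called by the test, 0 of all and 0 of the members, stayed at 0 with total tags, cyclic loess, either filter and either control library left out. They were 17840 and 42 with the controls kept as 2 libraries, 9919 and 18 with the newer quasi-likelihood estimate, 8558 and 15 with the likelihood ratio test, 2409 and 5 with DESeq2, 9372 and 15 with the authors' scaling, and 21194 and 37 with both the controls kept apart and the authors' scaling (added after seeing the data). The median log2 fold change of promoter members (0.11) was -0.14 under the authors' scaling with the controls as 1 sample or kept apart, and 0.09 to 0.19 with a library left out. That of other members (0.16) was -0.11 and -0.10 there, 0.14 with total tags, 0.10 with cyclic loess, 0.13 with at least 20 counts in every library, 0.07 with a promoter taken as within 1 kb of a start, and 0.10 to 0.15 with a library left out. Members beyond 2-fold under both hairpins (17) numbered 37 at 1.5-fold, 8 with at least 20 counts in every library, 14 to 18 under other scalings and a prior of 10, and 16 to 38 with a library left out (38 without hairpin II, where 1 hairpin has to pass). Of 47 peaks followed singly, 14 changed sign under the authors' scaling and 3 under cyclic loess. The column names number the controls as well as the hairpins, but the labels pair nothing by these numbers, and with the controls as 1 sample no pairs exist. With the controls kept as 2 libraries and the number as a replicate block (added after seeing the data), 18946 peaks and 39 members were called, and the medians were 0.12 and 0.16. Leaving out a Hira library leaves no residual degree of freedom, so it gave values with no test. Depth limits peaks away from starts, where the control median was 4.44 CPM.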
